A study of Mus musculus with 4 samples.

Results

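The genes examined here are 10 endothelial marker genes, Pecam1, Cdh5, Kdr, Tek, Flt1, Egfl7, Fabp4, Ptprb, Tie1 and Eng, which were followed to describe how RNA of cells other than cardiomyocytes divided between 2 fractions of the mouse heart. They were picked by name from the 15746 genes of the deposited table, and all 10 had values in all 4 libraries. RNA was sequenced from the hearts of adult WT mice, with 2 libraries labelled isolated mitochondria (the mitochondrial fraction) and 2 labelled tissue minus mitochondria (the rest fraction). No other genotype or agent distinguished the groups. Hearts of both fractions had been flushed with PBS, minced, incubated with trypsin and homogenized, and the rest fraction was the low-speed pellet of cell debris, whereas the mitochondria were pelleted at higher speed and then treated with digitonin, which opens membranes that contain cholesterol, and with RNase A. These treatments, and a fragmentation time adjusted for mitochondrial samples, cannot be told apart from the fraction itself. Whether libraries with the same replicate number came from the same animal, or each library from 1 animal, was not given in the sources used here, so that p-values measure only the spread between these libraries.

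Endothelial cells line the blood vessels, the lymphatics and the inner wall of the heart, and the capillaries of the myocardium bring them into close contact with cardiomyocytes. Their identity rests largely on proteins of the cell surface. Receptor tyrosine kinases for vascular endothelial growth factor (VEGF) and for angiopoietins control growth and stability of the vessels, cadherin and immunoglobulin-type molecules hold neighbouring cells together, and co-receptors of the bone morphogenetic protein (BMP) pathway sense flow-dependent signals. The mRNAs of such proteins are translated at the endoplasmic reticulum, while fatty acid-binding proteins are made in the cytosol.

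To show how the members differ in this respect, the first 75 bases of each coding sequence are given below, from the GENCODE M21 transcript with the longest coding sequence on GRCm38. Capitals mark codons, after the start codon, with T at the second position, which encode the hydrophobic amino acids phenylalanine, leucine, isoleucine, methionine and valine.
Kdr: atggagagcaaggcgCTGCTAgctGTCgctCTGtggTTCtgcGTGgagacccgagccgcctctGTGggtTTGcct
Flt1: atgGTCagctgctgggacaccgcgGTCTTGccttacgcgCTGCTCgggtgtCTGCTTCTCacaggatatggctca
Tek: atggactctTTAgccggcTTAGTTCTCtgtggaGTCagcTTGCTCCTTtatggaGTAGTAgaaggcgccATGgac
Tie1: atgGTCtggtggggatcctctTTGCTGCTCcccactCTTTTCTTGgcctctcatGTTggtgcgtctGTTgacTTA
Ptprb: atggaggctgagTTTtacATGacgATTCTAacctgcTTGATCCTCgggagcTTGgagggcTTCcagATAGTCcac
Eng: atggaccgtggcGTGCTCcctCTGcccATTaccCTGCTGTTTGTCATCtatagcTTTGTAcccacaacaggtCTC
Pecam1: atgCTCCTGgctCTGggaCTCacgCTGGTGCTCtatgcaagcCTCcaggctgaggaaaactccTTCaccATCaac
Cdh5: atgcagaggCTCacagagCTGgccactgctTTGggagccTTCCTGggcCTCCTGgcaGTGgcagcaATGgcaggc
Egfl7: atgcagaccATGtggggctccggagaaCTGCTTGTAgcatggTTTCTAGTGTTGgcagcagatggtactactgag
Fabp4: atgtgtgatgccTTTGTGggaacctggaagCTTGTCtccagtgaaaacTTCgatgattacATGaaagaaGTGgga

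Of the 24 codons after the start, 7 had T at the second position in Fabp4, the lowest number among the 10 genes, and 12 had it in Eng, the highest. The densest run of 10 codons held 4 such codons in Fabp4, 5 in Flt1, 6 in Kdr, Ptprb, Cdh5 and Tie1, and 7 in Tek, Eng, Pecam1 and Egfl7. Fabp4, the only member that encodes a cytosolic protein, thus stood at the low end of this measure and the 9 genes for membrane or secreted proteins stood above it. Across 10585 protein-coding genes with values, 35.1% had a run with at least 5 such codons.

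Normalized counts are the authors' read counts per gene divided by a size factor of the library. The approximate number of reads on genes was 23500000 to 47400000 per library, but mitochondrially encoded RNA took 93.5% to 97.6% of the normalized counts in the mitochondrial and 63.2% to 67.5% in the rest libraries, which left far fewer reads for nuclear genes in the former. A single read was worth 3.87 normalized counts in mitochondrial replicate 1 and 2.55 in replicate 2, but only 0.264 in rest replicate 1 and 0.365 in rest replicate 2. The members were accordingly covered by 18 to 254 reads in a mitochondrial library and by 331 to 4420 reads in a rest library, so that the mitochondrial values carry most of the counting error. Cardiomyocyte RNA was abundant in both fractions, with 128576 to 184487 normalized counts of Myh6, the main myosin heavy chain of the adult mouse heart.

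Of the 10 members, 9 were lower in both mitochondrial libraries than in both rest libraries, and only Fabp4 overlapped between the fractions. Among the 12150 genes tested, 33.4% were lower in this way without overlap and 27.7% were higher. The mean level in the mitochondrial fraction was between 44.9% (Ptprb) and 69.5% (Tek) of that in the rest fraction for these 9 genes and 98.8% for Fabp4. Each comparison of the fractions was made with limma on log2 of the normalized count plus 1 across all genes tested, with Benjamini-Hochberg adjustment, and fold changes are differences on this scale, mitochondrial minus rest. A gene was called at an adjusted p under 0.05. By this test 1 member, Ptprb, was called lower and 0 were called higher, beside 1.39% of all genes called lower and 2.16% called higher. At an unadjusted p under 0.05, 9 members were lower and 0 higher, beside 16.2% and 14.1% of all genes. The median log2 fold change of the 10 members was -0.80, and that of all genes tested was -0.14. In bulk tissue, fewer cells of a type and less RNA per cell cannot be told apart, and here neither can be told apart from a smaller share of each cell's RNA entering a fraction.

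**Figure D1:**
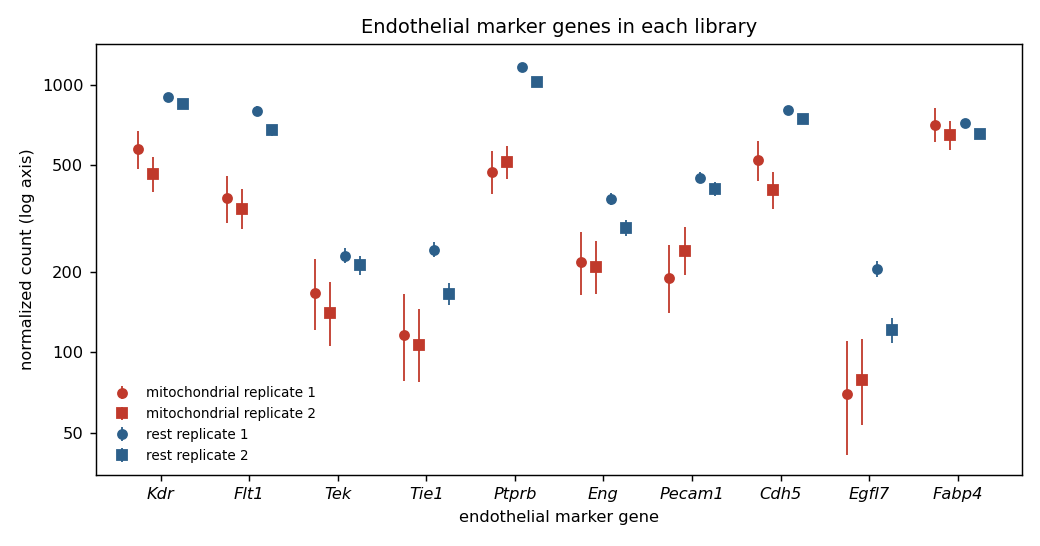
Normalized counts (log axis) of the 10 endothelial marker genes in each of the 4 libraries, with bars for exact 95% Poisson intervals of the reads behind each value. The red mitochondrial points lie below the blue rest points for 9 genes and at the same height for Fabp4.

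Kdr encodes VEGF receptor 2, the main signalling receptor for VEGF-A on endothelial cells (chr5:75932827-75978458, minus strand, mm10). It was measured at normalized counts of 573 and 464 in the mitochondrial libraries, against 899 and 851 in the rest libraries. The rest values were close to each other, and the lower of them was 1.49 times the higher mitochondrial value. The log2 fold change was -0.76 (SE 0.183), with an adjusted p of 0.0769 in limma, so that Kdr was not called.

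Flt1 encodes VEGF receptor 1, which binds VEGF tightly with little signalling of its own and also exists as a soluble decoy (chr5:147561604-147726011, minus strand). Its normalized counts were 376 and 344 in the mitochondrial libraries, against 801 and 675 in the rest libraries. The mitochondrial values differed little from each other and both lay far below the rest values. With a log2 fold change of -1.03 (SE 0.178), Flt1 had a limma adjusted p of 0.0545, just outside the threshold.

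The receptor of the angiopoietins, Tie2, is encoded by Tek (chr4:94739289-94874976, plus strand). Tek showed 167 and 140 normalized counts in the mitochondrial and 230 and 212 in the rest libraries. These groups did not overlap, but they were the closest among the 9 lower genes, with a log2 fold change of -0.53 (SE 0.193) and an adjusted p of 0.156 in limma. Tie1 encodes a related receptor that acts together with Tie2 (chr4:118471191-118490061, minus strand). It was detected at normalized counts of 116 and 107 in the mitochondrial libraries, against 242 and 166 in the rest libraries. Here the spread was in the rest fraction, where replicate 1 was well above replicate 2. The log2 fold change of Tie1 was -0.84 (SE 0.252, limma adjusted p = 0.113).

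Ptprb encodes the vascular endothelial protein tyrosine phosphatase, which removes phosphate from Tie2 and associates with VE-cadherin (chr10:116275523-116389535, plus strand). It was the member with the largest difference on the log2 scale. Normalized counts were 473 and 513 in the mitochondrial libraries, against 1168 and 1028 in the rest libraries, and the lower rest value was 2.0 times the higher mitochondrial value. The log2 fold change of -1.15 (SE 0.168) passed the threshold with a limma adjusted p of 0.0469. This call was close to the threshold and was lost with a pseudocount of 0.1, without the mean-variance trend and with any of the 4 libraries left out, where the log2 fold change stayed between -1.24 and -1.06.

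Eng encodes endoglin, a co-receptor for BMP and TGF-beta ligands on the vessel wall (chr2:32646595-32682669, plus strand). It was found at normalized counts of 217 and 209 in the mitochondrial libraries, against 374 and 292 in the rest libraries. The mitochondrial libraries were nearly equal, and rest replicate 2 was the rest library nearer to them. The log2 fold change was -0.63 (SE 0.200, limma adjusted p = 0.123).

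Of the adhesion molecules, Pecam1 (CD31) sits at the contacts between endothelial cells and also on platelets and leukocytes (chr11:106654217-106750628, minus strand). Its normalized counts were 190 and 240 in the mitochondrial libraries, against 449 and 409 in the rest libraries. The mitochondrial mean was 50.1% of the rest mean, and the log2 fold change was -1.0 (SE 0.198, limma adjusted p = 0.0608). Cdh5 encodes VE-cadherin, the cadherin of endothelial adherens junctions (chr8:104101625-104144511, plus strand). It showed normalized counts of 523 and 403 in the mitochondrial libraries, against 805 and 747 in the rest libraries. For Cdh5 the spread was wider between the mitochondrial than between the rest libraries, with a log2 fold change of -0.75 (SE 0.198, limma adjusted p = 0.0903).

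Egfl7, which encodes a factor secreted by endothelial cells into the matrix and hosts a microRNA gene in an intron (chr2:26580014-26593120, plus strand), was the member with the fewest reads. It was counted at 70 and 79 in the mitochondrial libraries, against 205 and 121 in the rest libraries, all as normalized counts. The value of mitochondrial replicate 1 rested on 18 reads, with an exact 95% Poisson interval of 41.3 to 110 normalized counts that covers counting error only. The rest libraries stood far apart, and the log2 fold change of -1.07 had the largest standard error of the 10 genes (0.315, limma adjusted p = 0.109). Its log2 fold change was -0.69 without rest replicate 1 and -1.45 without rest replicate 2.

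Fabp4 encodes a fatty acid-binding protein of the cytosol that is found in capillary endothelium and also in adipocytes and macrophages (chr3:10204088-10208576, minus strand). Unlike the other members, it had the same range in both fractions, with 709 and 648 normalized counts in the mitochondrial and 719 and 655 in the rest libraries. The log2 fold change was -0.02 (SE 0.164, limma adjusted p = 0.949), and its sign turned to 0.05 without mitochondrial replicate 2 or rest replicate 1. Of the adipocyte markers fixed for comparison, 1 of 6 had a value, namely Cfd with 0 and 5 normalized counts in the mitochondrial and 3 and 8 in the rest libraries, while macrophage markers were present and are described with the other cell types. In the annotation the exons of all Fabp4 transcripts together cover the whole gene of 4489 bases, so that reads from its introns would also be counted.

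**Figure D2:**
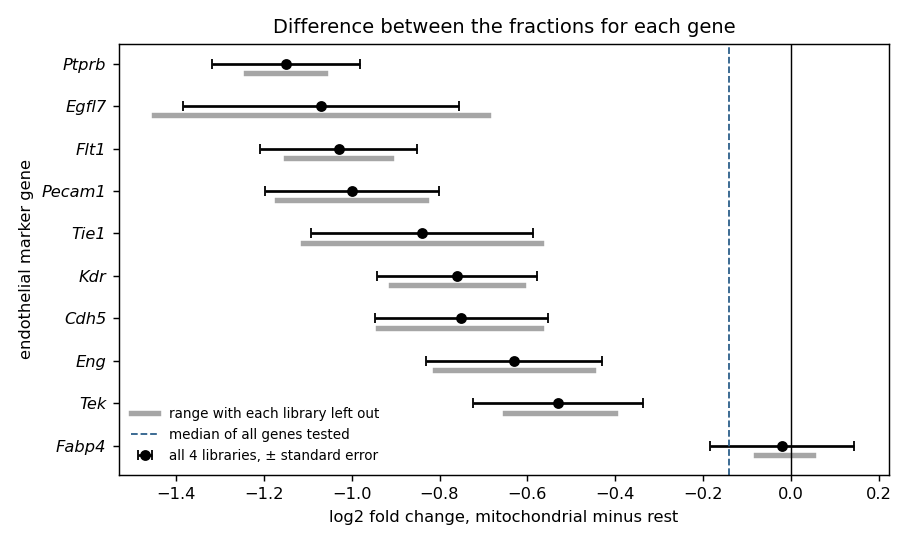
Log2 fold change (mitochondrial minus rest) of each member with its standard error from limma in black, the range with each library left out in grey, and the median of all genes tested (-0.14) as a dashed line. For 9 genes the values with a library left out stay below that line, and for Fabp4 they lie on both sides of 0.

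Counting intervals were separate between the fractions for 5 of the members, beside 6.59% of all genes tested with the mitochondrial side lower. Such a separation is easier to reach for genes with more reads, as the members have, and the intervals leave out the spread between libraries. For Pecam1, Cdh5, Kdr, Flt1 and Ptprb, the upper 95% limits of both mitochondrial values lay below the lower limits of both rest values, whereas for Tek, Tie1, Eng, Egfl7 and Fabp4 at least 1 pair of intervals touched. Some counts may also have been affected by overlapping genes, since reads that matched several genes were excluded by the authors. In the annotation Egfl7 overlaps Gm20532 on the same strand and Agpat2 on the opposite strand, Eng overlaps Fpgs on the opposite strand, Cdh5 overlaps the antisense gene Gm29682, and Ptprb overlaps Gm26495 and Gm47625. The use of strand in the counting was not given in the sources used here, and the part of these overlaps in the values was not tested.

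Per length of the transcript, Fabp4 was the most abundant member in both fractions, with 757 ± 48.1 normalized counts per kb (SD, n = 2) in the mitochondrial and 767 ± 50.5 in the rest fraction. Cdh5 followed, with 116 ± 21.2 and 194 ± 10.3 normalized counts per kb, clear of its neighbours in each fraction. In the mitochondrial fraction the next were Kdr (87.5), Pecam1 (72.2), Ptprb (70.3), Eng (62.2), Egfl7 (53.6), Flt1 (52.2), Tek (33.0) and Tie1 (27.3), given as means of normalized counts per kb. Of these neighbours, Kdr and Pecam1, Pecam1 and Ptprb, and Egfl7 and Flt1 overlapped between libraries. In the rest fraction the order after Cdh5 was Ptprb (156), Kdr (148), Pecam1 (144), Egfl7 (117), Flt1 (107), Eng (97.3), Tie1 (49.9) and Tek (47.5). There the values of neighbours overlapped from Ptprb to Eng and again between Tie1 and Tek. Per transcript length, the rest fraction thus gave a firm order only for Fabp4, Cdh5, this middle group and the 2 TIE receptors. Every member lay above at least 67.9% of nuclear protein-coding genes tested in normalized counts per kb in the mitochondrial libraries and above at least 79.0% in the rest libraries. These levels use the length of 1 transcript, whereas reads were counted over all annotated exons. For Fabp4 the exons cover 4489 bases against 896 in its transcript, and for Cdh5 4203 against 3995. The lead of Fabp4 over Cdh5 in the rest fraction depends on this choice. There Cdh5 had the higher mean, at 776 against 687 normalized counts, over fewer exon bases, so that Fabp4 would not lead it per exon base. The full order per exon base was not computed.

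Values within a library do not depend on how the libraries were scaled. The 10 members together took 0.157% of the normalized counts of nuclear protein-coding genes in mitochondrial replicate 1 (95% Wilson interval 0.147% to 0.167%) and 0.171% in replicate 2 (0.162% to 0.181%). Their share was 0.293% in rest replicate 1 (0.289% to 0.297%) and 0.252% in rest replicate 2 (0.248% to 0.257%), and the intervals of the fractions did not overlap. These intervals cover counting error only, and those of the 2 rest libraries did not overlap each other either. Fabp4 held 20.8% and 20.6% of the members' sum in the mitochondrial libraries but 12.2% and 12.7% in the rest libraries.

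Measured against Fabp4 in the same library, all 9 other members were lower in both mitochondrial than in both rest libraries, as were 32.6% of the other genes tested. Since Fabp4 itself hardly differed between the fractions, this count largely restates the one from the normalized counts. The ratio of Ptprb to Fabp4 was 0.667 and 0.792 in the mitochondrial and 1.62 and 1.57 in the rest libraries. For Kdr it was 0.808 and 0.716 against 1.25 and 1.30, and for Flt1 0.530 and 0.531 against 1.11 and 1.03. Ptprb, Kdr, Flt1 and Cdh5 thus gave fewer counts than Fabp4 in the mitochondrial libraries and more in the rest libraries. The ratio changed least for Tek, from 0.320 and 0.324 in the rest libraries to 0.236 and 0.216 in the mitochondrial libraries. With 2 libraries in each fraction an exact permutation test of such a ratio cannot give a two-sided p below 0.333, and none was run.

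**Figure D3:**
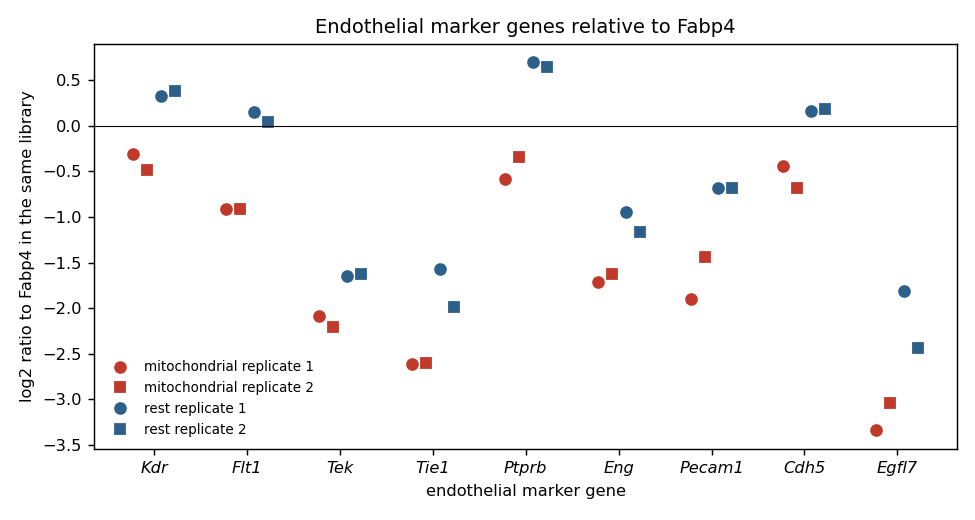
Log2 ratio of the normalized count of 9 endothelial marker genes to that of Fabp4 in the same library, with 0 for equal counts. The red mitochondrial points lie below the blue rest points for all 9 genes, and Ptprb, Kdr, Flt1 and Cdh5 cross the line of equal counts.

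The 9 genes were lower in the mitochondrial fraction under each of the 4 other scalings tried, and Fabp4 kept a negative sign. Scaled to the library total, all 10 members including Fabp4 were called lower, but so were 98.9% of all genes, whose median was then -3.93, and the median of the members was -4.76. Scaled to the total without the mitochondrial chromosome, all members but Fabp4 were called lower, beside 31.4% of all genes, with a median of -1.66 for the members and -0.98 for all genes. Fabp4 was at -0.88 under this scaling, near the median of all genes, as it was with the deposited scaling.

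Most other endothelial genes also had negative fold changes. Of 30 further genes with endothelial expression, all tested, 26 had a negative log2 fold change, 19 were lower without overlap and 1, Cav1, was called lower. Over all genes tested, 33.4% were lower without overlap and 1.39% were called lower. At an unadjusted p under 0.05 in limma, 15 of the 30 were lower and 2 higher, beside 16.2% and 14.1% of all genes. The median of the 30 genes was -0.69. Cav1, the coat protein of caveolae, was at 186 and 153 normalized counts in the mitochondrial and 412 and 457 in the rest libraries (log2 fold change -1.36, SE 0.192, limma adjusted p = 0.0469). The most abundant other genes of this list were the adhesion receptor Adgrf5, with a log2 fold change of -0.65, the sialomucin Podxl, with -0.79, and Vwf. Vwf, the von Willebrand factor that captures platelets, was higher in both mitochondrial libraries, with 492 and 375 normalized counts in the mitochondrial and 243 and 228 in the rest libraries, although its log2 fold change of 0.87 had an adjusted p of 0.0751 in limma. Erg, an ETS transcription factor of the endothelium, was also higher in both mitochondrial libraries (105 and 125 against 79 and 68 normalized counts), with a limma adjusted p of 0.145. Plvap, a protein of endothelial diaphragms that is named here after its values were seen, was the third such gene, at 23 and 26 against 12 and 22. The mean log2 level of the 10 members minus that of the 30 other endothelial genes was 2.15 and 2.19 in the mitochondrial libraries. It was 2.22 and 2.23 in the rest libraries, a difference of -0.06 between the fractions. This difference was -0.14 without Fabp4 and 0.70 for Fabp4 alone, in each case without overlap between the fractions.

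The pathways in which the members act were read from lists of their ligands, receptors and targets. Counts of negative genes in these lists stand beside a median of -0.14 over all genes tested. Of all genes, 1.39% were called lower and 2.16% higher. In the VEGF pathway 7 of 10 genes had a negative log2 fold change, with a median of -0.68. Vegfa, the main ligand of Kdr, was at 256 and 224 normalized counts in the mitochondrial and 531 and 451 in the rest libraries (-1.03 on the log2 scale, limma adjusted p = 0.0563). Vegfb, a ligand of Flt1 that is made by cardiomyocytes, was instead called higher, with 914 and 704 against 319 and 243 normalized counts (1.52, SE 0.234, limma adjusted p = 0.0487). The co-receptors Nrp1 and Nrp2 had log2 fold changes of -0.59 and -0.52 without a call.

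In the angiopoietin-TIE pathway 4 of 5 genes were tested and none was called by limma, with 2 lower and 1 higher at an unadjusted p under 0.05. Angpt1, the activating ligand of Tie2, and Foxo1, a transcription factor held in check by Tie2, had log2 fold changes of -0.97 and -1.07. Svep1, a large matrix protein that binds TIE1, had 411 and 263 normalized counts in the mitochondrial and 81 and 137 in the rest libraries (1.63, limma adjusted p = 0.0690). Of the 15 genes of the BMP and TGF-beta pathway, 14 were negative with a median of -0.41, and none was called by limma, with 3 lower at an unadjusted p under 0.05. Its most abundant receptors were Bmpr2 (-0.88), Tgfbr3 (0.04) and Bmpr1a (-0.09).

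Junction and adhesion genes had a median of -0.47, with 11 of 13 negative and none called by limma (3 lower at an unadjusted p under 0.05). Within this list the scaffold Tjp1 was at -0.82, alpha-catenin (Ctnna1) at -0.43 and beta-catenin (Ctnnb1), which also binds VE-cadherin, at 0.12 on the log2 scale. Endothelial transcription factors had a median of -0.92 over 16 genes, of which 14 were negative and none was called (8 lower and 1 higher at an unadjusted p under 0.05 in limma), with Ets1 at -0.32 and Ets2 at -0.93, and the median was -0.60 without mitochondrial replicate 1. In the Notch pathway 10 of 11 genes were negative and the median was -0.85. Dll4, the Notch ligand of arterial endothelium and of sprouting tip cells, was called lower, with 23 normalized counts in each mitochondrial library against 94 and 84 in the rest libraries (-1.90, SE 0.246, limma adjusted p = 0.0427). With a read worth 3.87 and 2.55 normalized counts in mitochondrial replicates 1 and 2, these equal values of Dll4 rested on few reads. Notch4 was at -1.53, Notch1 at -0.42 and the DNA-binding factor Rbpj at 0.10.

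Genes that move fatty acids from blood to muscle, among which Fabp4 acts, had fold changes in both directions. Their median was -0.22 over 8 genes, of which 5 were negative and 3 positive, and turned to 0.18 without mitochondrial replicate 2. At an unadjusted p under 0.05, 2 were higher and 0 lower in limma, and 1 was called. Fabp3, the fatty acid-binding protein of cardiomyocytes and a relative of Fabp4, was called higher, with 7332 and 6145 normalized counts in the mitochondrial and 2291 and 1954 in the rest libraries (1.67, SE 0.204, limma adjusted p = 0.0427). Lipoprotein lipase (Lpl), the fatty acid transporter Slc27a1 and Cd36, the fatty acid receptor shared by endothelium and muscle, were at -0.10, -0.57 and -0.34.

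The members were next set against markers of other heart cells. These lists were not matched for transcript length, with which the fold change varied as described below. Over all genes tested, 2.16% were called higher and 1.39% called lower. Of 20 cardiomyocyte markers 13 were positive with a median log2 fold change of 0.87, and 4 were called higher by limma, namely Fabp3, the troponin C gene Tnnc1, the myosin light chain gene Myl3 and the heart cytochrome oxidase subunit gene Cox6a2 (log2 fold changes 1.67, 1.58, 1.61 and 2.20). The most abundant markers diverged, however, with Ttn at -1.47, Myh6 at -0.20 and Tnnt2 at 1.88. The mean log2 level of the members minus that of the cardiomyocyte markers was -4.93 and -4.74 in the mitochondrial and -3.38 and -3.58 in the rest libraries, a difference of -1.36 between the fractions. This value depended on the summary of the cardiomyocyte list and was -0.32 from the sums of normalized counts, in which Ttn and Myh6 prevail, and -1.87 from medians over genes.

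Most fibroblast and leukocyte genes had positive fold changes, unlike the members. Of 10 fibroblast markers 8 were positive, with a median of 0.97 and none called by limma (3 higher at an unadjusted p under 0.05). The most abundant were Gsn, with 11983 and 4569 normalized counts in the mitochondrial and 2504 and 3007 in the rest libraries, Col3a1, with 2529 and 1025 against 654 and 969, and Dcn, with 2018 and 1015 against 621 and 911. Their mitochondrial replicate 1 stood well above replicate 2, and the median of the list was 0.40 without mitochondrial replicate 1 and 1.38 without replicate 2. All 10 tested markers of macrophages and leukocytes were positive, with a median of 0.86 and none called by limma (3 higher at an unadjusted p under 0.05), and the median was 0.29 without mitochondrial replicate 1. The sum over all 11 of these markers with values, including the untested Cd14, was 1371 and 653 normalized counts in the mitochondrial libraries. It was 451 and 626 in the rest libraries. Mrc1, Lyz2 and Csf1r were the most abundant of them, at 0.90, 0.70 and 0.88. Relative to fibroblast markers, the mean log2 level of the members differed by -1.45 between the fractions (mitochondrial minus rest), and relative to macrophage and leukocyte markers by -1.58, without overlap between the fractions in either case. Fabp4 alone differed by -0.69 and -0.82 in these measures, and its values relative to fibroblast markers overlapped.

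Markers of the vessel wall went both ways, whereas those of red blood cells were negative throughout. Of 9 pericyte and smooth muscle markers 5 were negative and 4 positive, with 2 lower and 1 higher at an unadjusted p under 0.05 in limma. Their median was -0.51, and -0.18 without rest replicate 2. Of this list Myh11, the smooth muscle myosin, was called lower, with 43 and 61 normalized counts in the mitochondrial and 380 and 800 in the rest libraries (-3.40, SE 0.422, limma adjusted p = 0.0427). The potassium channel subunit Abcc9, the pericyte regulator Rgs5 and the PDGF receptor Pdgfrb were at -0.51, -0.89 and 0.51. The mean log2 level of the members against this list was 0.97 and 0.58 in the mitochondrial and 1.13 and 0.56 in the rest libraries and overlapped between the fractions. All 5 tested erythroid genes were negative with a median of -2.09 but none was called by limma, and none passed an unadjusted p of 0.05. Their sum was 50 and 341 normalized counts in the mitochondrial and 824 and 440 in the rest libraries, and the abundant globin genes Hba-a1, Hba-a2 and Hbb-bs were at -1.77, -2.06 and -2.92. Mitochondrial replicate 1 was the lowest library here, and the median of the erythroid genes was -0.91 without it and -3.45 without mitochondrial replicate 2. The part of blood cells in the values of Pecam1, which leukocytes and platelets express, was not tested.

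**Figure D4:**
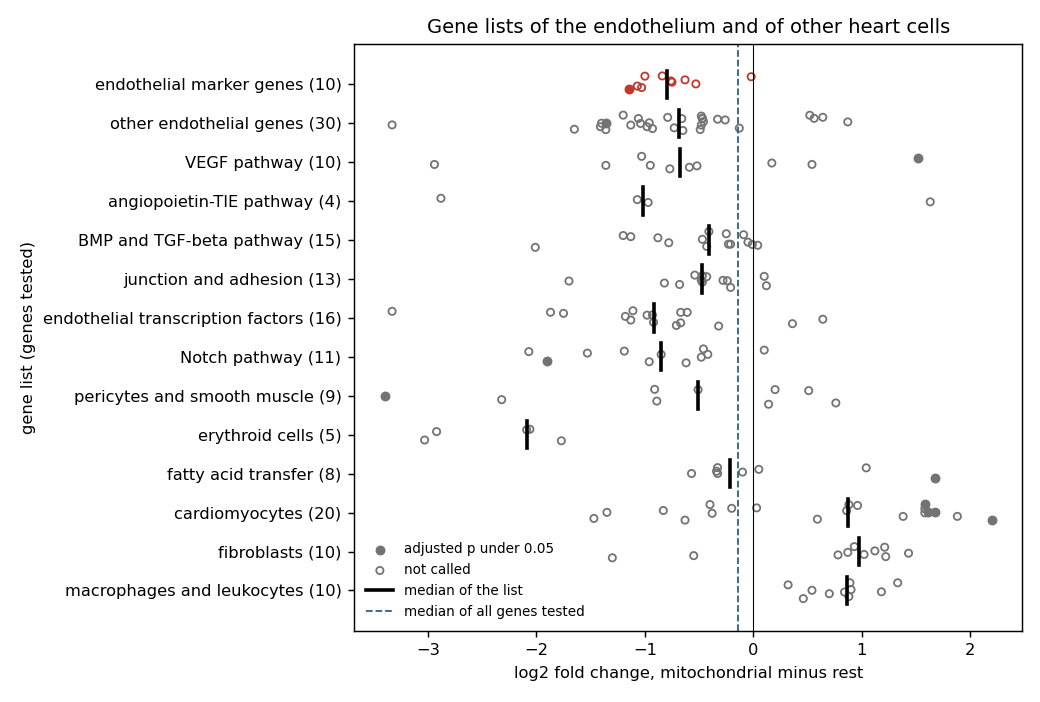
Log2 fold change (mitochondrial minus rest) of the tested genes in the endothelial lists and in lists of other heart cells, with the number of genes tested in brackets, filled points for an adjusted p under 0.05 and black bars for medians. The lists from endothelial markers to Notch, whose pathway genes are not all endothelial, have medians between -1.02 and -0.41. The lowest is that of the angiopoietin-TIE list, with 4 tested genes. Medians of cardiomyocytes, fibroblasts and macrophages lie between 0.86 and 0.97. The lymphatic (median 0.13) and endocardial (median 0.51) lists are not drawn.

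Lymphatic and endocardial genes were too few or too low to describe these endothelial subtypes. Of the lymphatic genes 4 were tested, with a median of 0.13, Prox1 at -0.45, Flt4 at -0.77 and Reln at 0.70, and of the endocardial genes 3, with a median of 0.51, Npr3 at 0.51, Cdh11 at -0.72 and Cytl1 at 1.26. None of these 7 genes was called by limma, although 1 lymphatic gene was lower and 1 higher at an unadjusted p under 0.05. The lymphatic median turned to -0.07 without rest replicate 1, and the endocardial median was near 0 without mitochondrial replicate 2. The lists for platelets (Pf4, 1.5) and mesothelium (Wt1, 0.92) had 1 tested gene each.

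The fold change varied with the length of the transcript across all nuclear protein-coding genes, and the members ranged from 896 bases (Fabp4) to 7016 bases (Ptprb). Over 10597 genes, which are not independent replicates, Spearman's rho between length and log2 fold change was -0.43. The median log2 fold change was 1.14 among 543 genes with transcripts of up to 1000 bases, 0.41 from there to 2000 bases, -0.12 to 4000 bases, -0.41 to 6000 bases and -0.58 above 6000 bases. All 10 members lay below the median of their own length class, but several lay well within it. The share of the class that was lower still ranged from 6.5% for Egfl7 to 42.1% for Tek, with 28.2% for Kdr. Fabp4, with a transcript of 896 bases, had a log2 fold change near 0 but differed from its class by -1.16. Egfl7, with 1391 bases, differed from its class by -1.48 and Pecam1, with 2977 bases, by -0.88. The other members were nearer to their classes, at -0.57 for Ptprb (7016 bases), -0.45 for Flt1 (6895 bases), -0.43 for Tie1, -0.35 for Kdr, -0.12 for Tek (4654 bases), -0.64 for Cdh5 and -0.51 for Eng. The fragmentation time differed between the fractions, and its part in this trend was not tested. Nor was the part of transcript length in the medians of the other gene lists and in the differences between lists. For codons with T at the second position, the median log2 fold change was -0.13 among 3717 genes with at least 5 in a run of 10. It was -0.14 among 6868 genes with 4 or fewer. This cut falls between Fabp4 and the other members, takes in 35.1% of genes and leaves length aside. These medians thus cannot decide whether such runs go with the fold change, which was not tested.

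**Figure D5:**
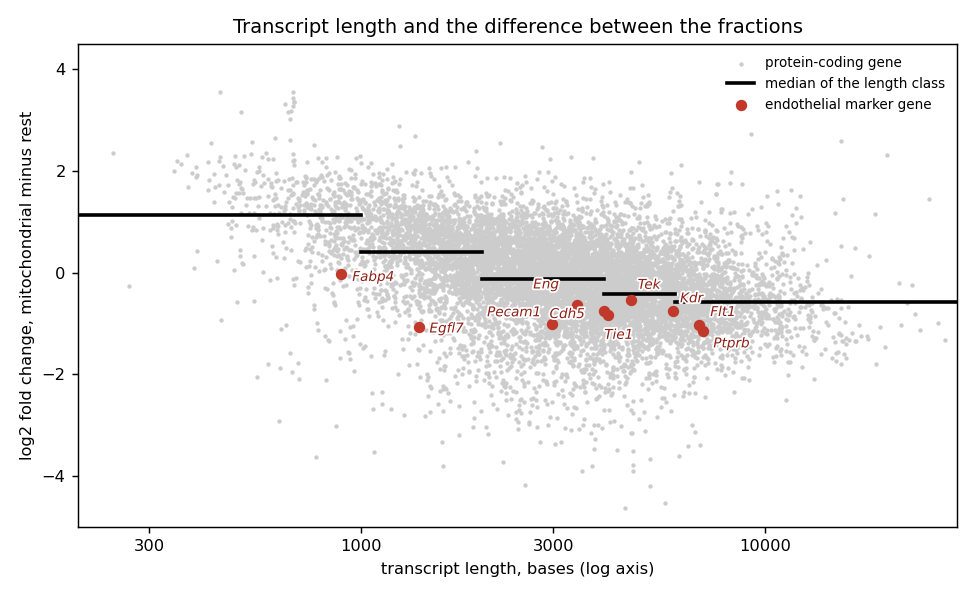
Log2 fold change (mitochondrial minus rest) against transcript length (log axis) for 10597 nuclear protein-coding genes in grey, of which 4 lie outside the axes, with the median of each length class as a black line. All 10 endothelial marker genes (red) lie below the line of their class, Fabp4 and Egfl7 at the short end and Flt1 and Ptprb at the long end.

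The pattern of the members was shared by many other genes. The median profile of the members, as log2 values centred on each gene's mean, was -0.33 and -0.46 in the mitochondrial and 0.53 and 0.26 in the rest libraries. Among 5568 other tested genes with a mean of at least 50 normalized counts, the 5 with the smallest Euclidean distance to this profile over the 4 libraries were Rgs12 (0.0362), Khdc4 (0.0473), Abcf3 (0.0572), Itga7 (0.0726) and Zfp142 (0.0754). Of the members themselves, Kdr (0.180) and Eng (0.183) were nearest to it, followed by Tie1 (0.201), Cdh5 (0.205), Flt1 (0.237) and Tek (0.297), while Pecam1 (0.406), Ptprb (0.406) and Egfl7 (0.496) were farther. Fabp4 was at a distance of 0.781, and 2132 of the other genes were closer to the profile than Fabp4.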

How the data were processed

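RNA-seq of 2 mitochondrial and 2 rest libraries from adult mouse hearts was analysed. Per the labels and the study's methods, the authors trimmed single-end reads with Trimmomatic 0.39, aligned them to mm10 with STAR 2.7.10a, counted exon reads per gene with featureCounts 2.0.2 and scaled them with DESeq2 1.30.1 (versions from the submitters' processing notes, while the paper's methods name other versions of STAR, the counting package and DESeq2). The deposited signal is the count of a gene over the size factor of its library, given in whole numbers. Single reads are hidden by rounding in the rest libraries, so that limma 3.58.1 in R 4.3.3 (moderated by empirical Bayes, with a trend of variance on level) was run on log2(value + 1) in place of a count test. Genes entered the test when 2 or more libraries reached 10 normalized counts, which left 12150 genes. The script was tested on simulated data. The value of 1 read was estimated in each library as the step whose rounded multiples best matched how often each whole value occurred. By this estimate 3 reads were worth 11.6 (mitochondrial 1), 7.65 (mitochondrial 2), 0.793 (rest 1) and 1.10 (rest 2) normalized counts. GENCODE M21 matched 15736 genes and gave lengths and sequences, using the transcript with the longest coding sequence. Other steps ran in Python 3.11.15 with pandas 2.3.3, scipy 1.17.1 and, for figures, matplotlib 3.10.9.

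The members and lists were chosen with earlier results of these data known. Named genes were all members, the called and up to 3 most abundant tested genes of each list, and the 5 nearest profiles. Intervals cover counting error only. The model held the fraction only. Alternatives were other scalings, filters and pseudocounts, the replicate block, no trend and each library left out.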

Additional observations from a re-analysis of the deposited data

How the results depend on the processing

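The members' median log2 fold change of -0.80 was within 0.03 of this value under other size factors, filters and pseudocounts. It was -4.76 scaled to the library total and -1.66 scaled to the total without the mitochondrial chromosome, and ranged from -0.94 to -0.70 with each library left out. No alternative called a member higher. Members called lower (1 as reported) numbered 2 with the trimmed mean of M-values and without the filter, 4 with a mean above 50 normalized counts, 3 with a pseudocount of 10, 10 and 9 with the 2 totals, and 0 with a pseudocount of 0.1, without the trend and with any library left out, where they ranged from 0 to 0. Over all genes (262 higher and 169 lower as reported), the calls were 452 and 371 with the trimmed mean of M-values, 2 and 12022 with the library total, 129 and 3819 without the mitochondrial chromosome, 790 and 670 with a mean above 50, 536 and 580 with a pseudocount of 10, 630 lower without the filter, 24 higher without the trend, and 0 and 0 with a pseudocount of 0.1 or any library left out. Without adjustment, limma gave 1694 higher and 1754 lower genes at p under 0.05 with this pseudocount. At the same unadjusted threshold in limma, the 9 lower members became 8 with the replicate block and 7 without the trend. Beside them stood 1965 lower genes of 12150 as reported, 1987 with the block and 1744 without the trend. A lone library was assumed to vary like the other fraction. The cause of these changes was not tested. Relative to cardiomyocyte markers, the difference of -1.36 became -0.32 from sums and -1.87 from medians. Fabp4 ranged from -0.08 to 0.05 with a library left out.

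With the replicate number as a block, 470 genes were higher and 309 lower, and 2 members (Flt1 and Ptprb) were called lower. The labels do not say that a number marks a shared animal, and the deviations of same-numbered libraries correlated with r = 0.13. The depth of nuclear RNA in the mitochondrial libraries limits the genes with few reads, among them Egfl7, Tie1 and Tek.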
